A study of Mus musculus with 4 samples.

Results

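Neurexins, neuroligins, neurexophilins and 1 leucine-rich repeat partner, genes whose products meet across the synaptic cleft, were followed in whole mouse retina with and without the transcription factor gene Fezf2. The genes were Nrxn2, Nrxn3, Nlgn1, Nlgn2, Nlgn3, Nxph1, Nxph4 and Lrrtm1. They were found by symbol in the deposited expression files, and all 8 were present among 22558 symbols, each at 1 locus. Nxph2 and Nxph3 belong to the same families and are described among the partner genes. Retinas came from Fezf2 knockout (KO) mice and from control littermates, whose genotype is labelled wildtype, both on the background labelled C57/BL/6J and kept under specific-pathogen-free housing with normal feeding. Mice were 7 or 14 days old (P7 and P14), with 1 library per genotype and age and 4 libraries in all. The labels give neither how the allele was made, nor the sex of the mice, nor how many retinas entered a library.

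Neurexins are membrane proteins of the presynaptic side. Each neurexin gene makes a long alpha form and a short beta form from separate promoters. Neuroligins are their partners on the postsynaptic side: neuroligin 1 is found mainly at excitatory synapses, neuroligin 2 at inhibitory ones and neuroligin 3 at both. Neurexophilins are secreted glycoproteins that bind the extracellular part of alpha-neurexins, and LRRTM1 is a postsynaptic leucine-rich repeat protein that also binds neurexins. In the retina, neuroligin 2 is known from GABA synapses of the inner plexiform layer, and between the ages sampled here bipolar cells form most of their synapses.

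The alpha and beta promoters matter most for Nrxn3, a member whose level differed between genotypes in opposite directions at the 2 ages, because the deposited level is 1 value per gene. The Nrxn3 row, like that of Nlgn1, lists 2 groups of transcription start sites, and the other 6 genes list 1. The alpha and beta forms therefore cannot be told apart in these values. RefSeq promoter windows of the build GRCm38.p6 were found for 5 of the 8 genes, 8 windows in all. Nrxn3 had 3 of these windows, and they were not matched to the start-site groups of its deposited row. The farthest upstream, at chr12:88794254-88794503, is not shown. It ends at the base before the protein-coding Nrxn3-205, which starts at 88794504 and spans 1540 kb. The windows at the 2 downstream Nrxn3 starts are shown. Both lie on the plus strand and read 5′ to 3′, and capitals mark each match to CANNTG (N is any base), the E-box core bound by basic helix-loop-helix factors.
Nrxn3 at chr12:88953140-88953389: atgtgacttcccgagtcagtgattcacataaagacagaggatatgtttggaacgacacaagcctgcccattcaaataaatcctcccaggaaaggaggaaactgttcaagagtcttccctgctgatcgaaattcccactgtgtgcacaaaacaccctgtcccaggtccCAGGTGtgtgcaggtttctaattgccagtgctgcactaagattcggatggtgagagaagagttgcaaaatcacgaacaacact
Nrxn3 at chr12:89812233-89812482: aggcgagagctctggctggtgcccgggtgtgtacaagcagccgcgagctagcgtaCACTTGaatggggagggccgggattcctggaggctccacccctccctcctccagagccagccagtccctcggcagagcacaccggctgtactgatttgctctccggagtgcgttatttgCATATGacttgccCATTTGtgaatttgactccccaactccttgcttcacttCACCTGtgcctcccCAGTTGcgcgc

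The first window shown ends at the base before Nrxn3-211, a processed transcript that starts at 88953390. The protein-coding Nrxn3-201 follows at 88953399 and spans 1380 kb. The second ends at the base before Nrxn3-202 and Nrxn3-203, which start at 89812483 and span 521 and 520 kb. The first window held 1 CANNTG match and 5 CG dinucleotides, and the second held 5 matches and 12 CG dinucleotides. CANNTG reads the same on both strands, and 66.2% of 32851 RefSeq windows of the same length held at least 1 match. The median window held 6 CG dinucleotides. TAATCC and TAATTA, homeodomain core motifs searched on both strands, occurred in 6.25% and 4.84% of all windows and in neither of these. A match describes letters only, and the files measure nothing at these starts.

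Levels are in FPKM, fragments scaled for transcript length and for the size of the library, and each deposited level carries a lower and an upper bound that cover counting error. A pair of libraries was called apart when their bounds did not overlap, and differences are of log2(FPKM + 1), a scale that understates the change of low genes. With 1 library per group, no test was possible between genotypes at 1 age. The knockout could be read from Fezf2 itself, which stood at 8.32 FPKM in the control and 0.592 in the KO at P7, and at 4.02 and 0.126 at P14. Rod markers summed to 4980 and 5068 FPKM at P7 and to 19133 and 20237 (control and KO) at P14, and 0 of 8 rod markers was listed at 0. By their bounds, 1 of 8 was higher in the KO and 2 lower at P7. At P14, 5 were higher and 1 lower. Among all genes, 7.33% were higher and 6.10% lower at P7, and 7.45% higher and 8.25% lower at P14. In whole retina, fewer cells of a type and less RNA per cell cannot be told apart. The precision differed between the 8 genes: the half-width of the bounds ran from 2.91% of the level (Nrxn3 in the KO at P7) to 18.4% (Nxph1 in the KO at P14). If the bounds span 2 standard deviations on each side, these correspond to about 4708 and 118 fragments.

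The 8 genes formed an abundant and a low group at P7. Nlgn2, the inhibitory-synapse neuroligin, was the highest in all 4 libraries. In the control at P7 the order was Nlgn2 (59.7 FPKM), Nxph4 (47.3), Nrxn2 (44.7), Nrxn3 (35.6), Nlgn1 (13.0), Nlgn3 (11.4), Lrrtm1 (9.15) and Nxph1 (7.73). Neighbours in that order were apart by their bounds except Nxph4 with Nrxn2 and Lrrtm1 with Nxph1. In the KO at P7 the neighbours that overlapped were Nxph4 with Nrxn3 and Nxph1 with Nlgn3. In the control at P14 they were Nlgn2 with Nrxn2, Nxph4 with Nrxn3, Nxph1 with Lrrtm1 and Lrrtm1 with Nlgn1. In the KO at P14 they were Nrxn3 with Nlgn3 and Nlgn1 with Nxph1. At P14 the 2 highest genes of both libraries were Nlgn2 and Nrxn2, as the plot of levels by library shows.

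**Figure D1:**
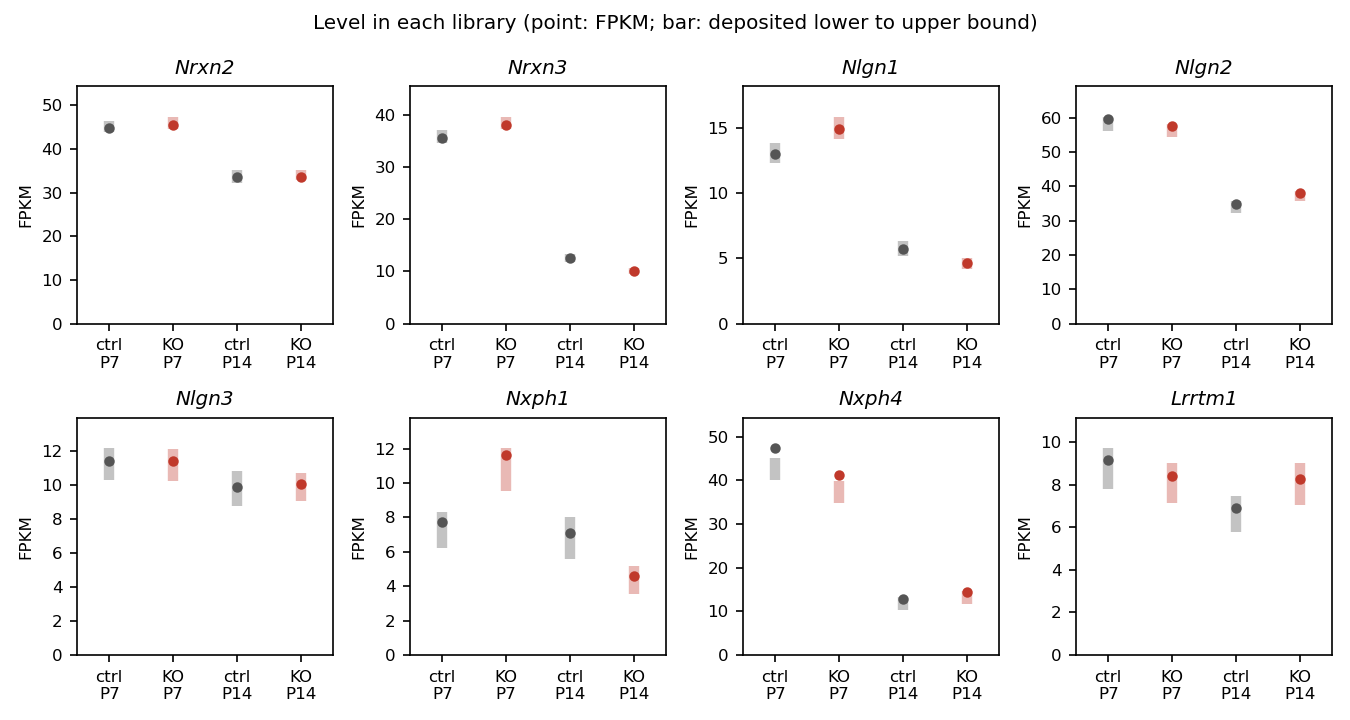
FPKM of each of the 8 genes in its own panel and scale, from 0, with 1 point per library (control in grey, KO in red) and a bar from the deposited lower to the upper bound. Both Nxph4 points at P7 lie above their bars, and Nxph1 goes from 7.73 (control) and 11.6 (KO) at P7 to 7.09 and 4.58 at P14.

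Summed over the 8 genes, expression was 229 FPKM in both libraries at P7, and 123 (control) and 124 (KO) at P14. The summed level was thus nearly equal between genotypes at each age, while ratios between its members differed in the deposited FPKM. No bounds were set on these ratios, and the P7 level of Nxph4 lay above its own upper bound in both libraries. Nrxn3 stood at 79.7% of the Nrxn2 level in the control and 83.7% in the KO at P7, and at 37.5% and 29.9% at P14. Nlgn1 stood at 21.8% and 25.9% of Nlgn2 at P7, and at 16.5% and 12.1% at P14. Nxph1 stood at 16.3% and 28.2% of Nxph4 at P7, and at 55.3% and 31.9% at P14. In each of these 3 ratios the KO was above the control at P7 and below it at P14. Their numerators are the 3 genes that showed this pattern on their own, so the ratios are not a separate result.

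From P7 to P14 both neurexins, Nlgn1, Nlgn2 and both neurexophilins of the 8 genes fell. The age difference was tested over both genotypes with limma, in an additive fit of genotype and age that has 1 residual degree of freedom and leans on a spread shared between genes. Of the 8 genes 6 fell and 0 rose at an adjusted p below 0.05 (Benjamini-Hochberg over 12932 genes), where 40.7% of all genes tested fell and 30.7% rose. The median age effect of the 8 genes was -0.66, against -0.08 over all genes.

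Nrxn3 was among the steepest. It stood at 35.6 FPKM (bounds 34.8 to 37.1) in the control and 38.1 (37.4 to 39.7) in the KO at P7, and at 12.6 (11.9 to 13.3) and 10.1 (9.54 to 10.7) at P14. Both P14 libraries lay below both P7 libraries with bounds far apart, and the age effect was -1.63 (SE 0.10, limma adjusted p = 4.46e-08). Nrxn2, the other neurexin here, stood at 44.7 and 45.5 FPKM (control and KO) at P7 and 33.6 and 33.7 at P14. Its genotypes were nearly equal at each age, and its age effect of -0.41 (SE 0.08, adjusted p = 0.000431) was the smallest of the 6 that passed.

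Among the neuroligins, Nlgn1 went from 13.0 (12.3 to 13.8) and 14.9 FPKM (14.2 to 15.8) at P7 to 5.74 (5.19 to 6.30) and 4.61 (4.20 to 5.04) at P14. Its age effect was -1.28 (SE 0.12, adjusted p = 1.15e-06). Nlgn2 went from 59.7 and 57.7 FPKM to 34.7 and 38.2, an age effect of -0.67 (SE 0.08, adjusted p = 1.06e-05). Both genotypes of each gene were lower at P14, so the neuroligins of excitatory and of inhibitory synapses moved the same way. Nlgn3, on the X chromosome, stood at 11.4 FPKM in both genotypes at P7 and at 9.85 and 10.1 at P14, and its age effect of -0.18 did not pass the test (adjusted p = 0.119).

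Nxph4 had the largest age effect of the 8 together with Nrxn3. It stood at 47.3 and 41.3 FPKM (control and KO) at P7 and at 12.8 and 14.3 at P14 (-1.63, SE 0.10, adjusted p = 2.65e-08). In both P7 libraries its deposited FPKM lay above its own upper bound (45.2 in the control and 39.8 in the KO), as it did for 2153 and 2066 symbols of those libraries, so its bounds were compared only with bounds. Nxph1 was the member whose age change differed most between the KO and control libraries, a difference that was not tested. It stood at 7.73 FPKM (6.20 to 8.32) in the control and 11.6 (lower bound 9.51) in the KO at P7, and at 7.09 (5.60 to 8.01) and 4.58 (3.57 to 5.19) at P14. The 2 controls overlapped, while the KO libraries were the highest and the lowest of the 4. Its fitted age effect of -0.64 (SE 0.18, adjusted p = 0.00744) averages these 2 courses, and it was no longer called when genes at low levels were kept in the fit (adjusted p = 0.139). Lrrtm1 stood at 9.15 and 8.39 FPKM at P7 and 6.91 and 8.29 at P14, with an age effect of -0.19 (adjusted p = 0.149).

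Lrrtm1 lies on chromosome 6 from 77192711 to 77195511 (mm9), inside the locus of Ctnna2, which encodes a catenin. The protocol names no strand marking, so reads from the 2 genes cannot be told apart over those 2801 bases. Ctnna2 stood at 22.4 and 23.7 FPKM at P7 and 16.4 and 16.2 at P14, a course unlike that of Lrrtm1 in the KO. The other 7 loci overlap no other listed gene.

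Within each genotype, 6 of the 8 genes were lower at P14 with bounds apart and 0 was higher. In the control, 37.7% of all genes tested were lower in this sense and 27.6% higher (65.3% in all), and in the KO 39.4% and 29.0% (68.4% in all). The exceptions were Nlgn3 and Nxph1 in the control, and Nlgn3 and Lrrtm1 in the KO. The median difference of the 8 genes was -0.58 in the control and -0.88 in the KO, against -0.08 and -0.09 over all genes.

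The P14 level as a percentage of the P7 level shows how the courses separated. Nrxn3 retained 35.3% of its P7 level in the control (32.0% to 38.3%, the widest range the bounds allow) and 26.4% in the KO (24.0% to 28.5%). Nlgn1 retained 44.1% (37.6% to 51.3%) and 30.9% (26.5% to 35.6%). Nxph1 retained 91.8% (67.3% to 129%) and 39.4% (29.8% to 54.5%). For these 3 genes the ranges of the genotypes did not overlap and the KO was lower, as it was for 2.95% of all genes, while the opposite order held for 1.88%. For the other 5 genes the ranges overlapped. Nrxn2 retained 75.1% and 74.0%, Nlgn2 58.2% and 66.2%, Nlgn3 86.6% and 88.6%, Nxph4 27.1% and 34.7%, and Lrrtm1 75.5% and 98.8%.

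**Figure D2:**
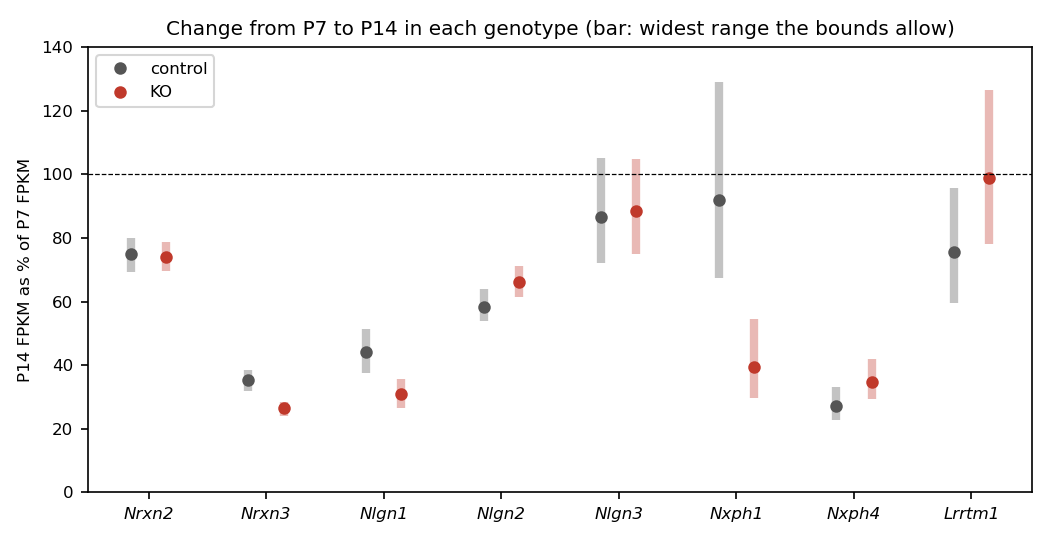
P14 FPKM as a percentage of P7 FPKM for each of the 8 genes, control in grey and KO in red, with bars for the widest range the bounds allow and a dashed line at no change. The bars of the genotypes are apart for Nrxn3, Nlgn1 and Nxph1, with the KO below the control in each.

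At P7 the KO library was higher than the control for Nxph1, Nlgn1 and Nrxn3 and lower for Nxph4, with bounds apart. These are 3 of 8 genes higher, where 7.33% of 12667 genes were higher, and 1 of 8 lower, where 6.10% were (13.4% in either direction). Nxph1 was the farthest: 11.6 against 7.73 FPKM, 50.5% higher (the bounds allow ratios from 1.14 to 1.93), and a log2 difference of 0.53, at percentile 99.5 of all genes. The bounds of Nlgn1 (14.9 against 13.0 FPKM, 0.18) and Nrxn3 (38.1 against 35.6 FPKM, 0.09) were apart by little, and both differences lay within the central range of all genes, from the 5th percentile of -0.29 to the 95th of 0.24. Nxph4 was lower at 41.3 against 47.3 FPKM (-0.19), also within that range.

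The remaining 4 genes overlapped at P7. The KO minus control differences were 0.02 for Nrxn2, -0.05 for Nlgn2, -0.11 for Lrrtm1 and, for Nlgn3, 11.4 FPKM in both libraries. The median of the 8 genes was 0.01, as it was over all genes. When the levels were rescaled to TPM, on which every library has the same total, with small RNA genes left out, Nrxn3 (0.05) and Nlgn1 (0.14) were no longer apart at P7. Nrxn3 also overlapped with upper quartile scaling (0.07). Nxph1 and Nxph4 stayed apart with both.

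At P14 the same 3 genes that were higher in the KO at P7 were lower. Nxph1 stood at 4.58 FPKM in the KO against 7.09 in the control, a ratio of 0.646 (0.446 to 0.927) and a log2 difference of -0.54, at percentile 1.25 of all genes. Nrxn3 stood at 10.1 against 12.6 FPKM (-0.29) and Nlgn1 at 4.61 against 5.74 (-0.26). The latter 2 lay within the central range of all genes, which ran from -0.32 to 0.28. These were 3 of 8 genes lower, where 8.25% of 12811 genes were lower, and 0 of 8 higher, where 7.45% were (15.7% in either direction).

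The other 5 genes overlapped at P14. Nlgn2 stood at 38.2 FPKM in the KO against 34.7 (0.13), Lrrtm1 at 8.29 against 6.91 (0.23) and Nxph4 at 14.3 against 12.8 (0.15). Nrxn2 and Nlgn3 differed by 0.00 and 0.03. The median of the 8 genes was 0.02, and that of all genes 0.003. By a rule of size instead of bounds, 1.5-fold in FPKM + 1, 0 of the 8 genes passed at either age, where 0.379% of genes were higher and 0.616% lower at P7, and 0.453% and 1.02% at P14.

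**Figure D3:**
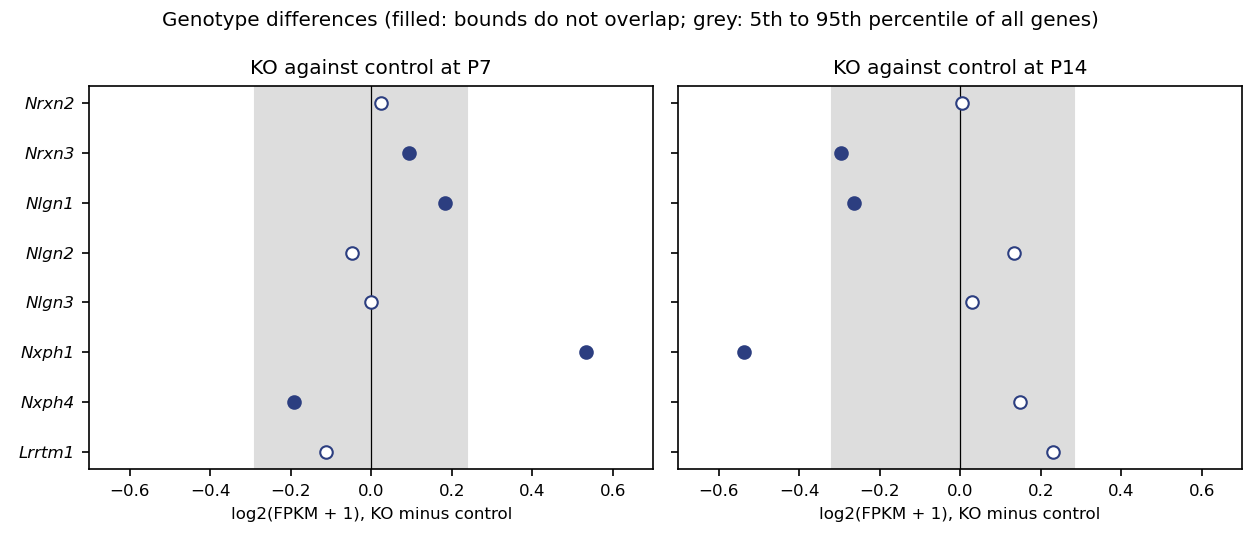
KO minus control difference in log2(FPKM + 1) of each gene at P7 (left) and P14 (right), filled where the bounds of the 2 libraries are apart, with the 5th to 95th percentile of all genes in grey. Nxph1 lies at 0.53 at P7 and at -0.54 at P14, outside the grey band both times.

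Higher in the KO at P7 and lower at P14, with bounds apart both times, described Nrxn3, Nlgn1 and Nxph1, 3 of 8 genes, and 1.01% of the 13244 genes measured at either age. The 8 genes were chosen with earlier results of these data known. The shares here and above therefore do not test whether these families differ from other genes. The reverse pattern, which 0.445% of genes had, was seen in 0 of the 8, and so were differences in 1 direction at both ages (1.38% of genes higher and 1.38% lower). The additive limma fit assumes 1 genotype difference for both ages and so averages opposite ones: 0 of the 8 genes had a genotype effect (adjusted p from 0.836 to 0.999), and neither did any at an unadjusted p below 0.05. Over all genes that fit called 0 (0%) higher and 31 (0.240%) lower in the KO, and 1186 had an unadjusted p below 0.05. Whether the genotype difference itself changed with age was not tested, since that difference is the residual of the fit.

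The P14 differences between genotypes moved with base composition. With 13088 genes put in 10 bins of equal size by the GC content of their longest transcript, the median KO minus control difference at P14 rose from -0.14 in the lowest bin to 0.13 in the highest. At P7 the medians of the bins ran from -8.9e-05 to 0.02. Of the 3 genes that were lower at P14, Nlgn1 has a transcript GC content of 38.9%, Nxph1 46.7% and Nrxn3 47.5%, the lowest 3 of the 8. Nlgn3 has 49.3%, Lrrtm1 54.7%, Nlgn2 60.7%, Nxph4 61.4% and Nrxn2 62.4%. Measured against the median of their own bin, Nxph1 was at -0.51 (percentile 0.994 of its bin) and Nrxn3 at -0.27 (4.97), both still apart by their bounds. Nlgn1 was at -0.13 (percentile 19.8) and no longer apart, and Nrxn2, at 0.00 before, came to -0.13 and was then apart. Nlgn2 and Nxph4 came to 0.00 and 0.02. At P7 the same step left the 4 calls in place, with Nxph1 at 0.53, Nlgn1 at 0.18, Nrxn3 at 0.09 and Nxph4 at -0.22. Why the P14 medians climb with GC content was not tested.

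**Figure D4:**
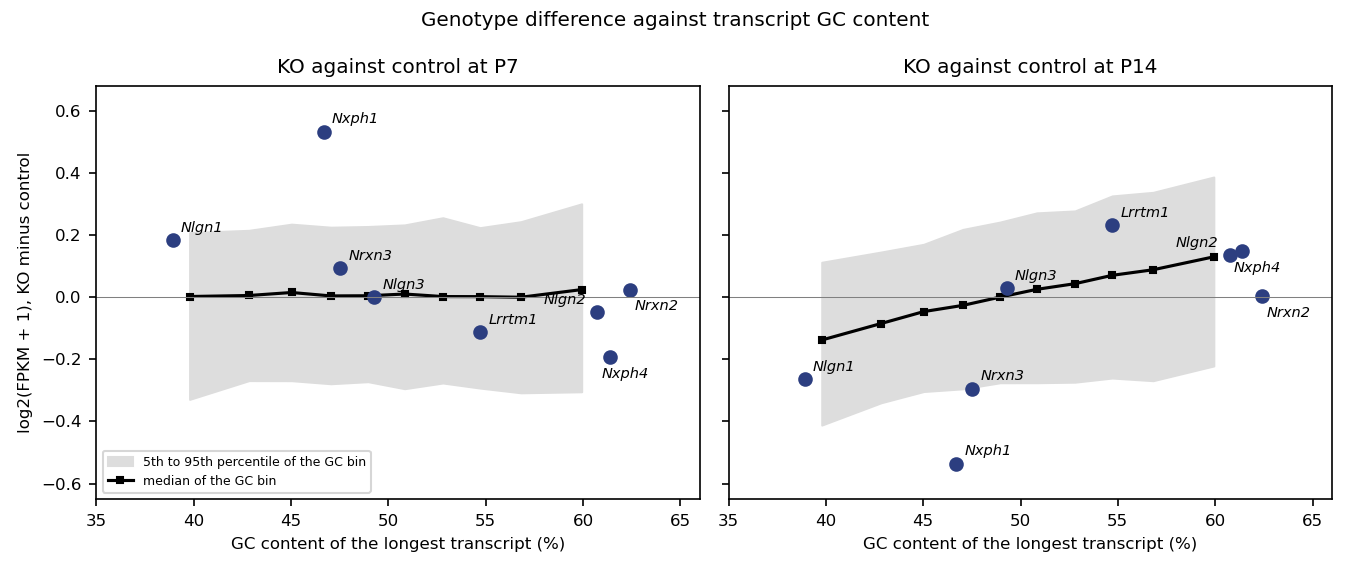
KO minus control difference in log2(FPKM + 1) against the GC content of the longest transcript (%), at P7 (left) and P14 (right), with the 8 genes as points, the median of each GC bin of all genes as squares and its 5th to 95th percentile in grey. The line of medians is flat at P7 and climbs from -0.14 to 0.13 at P14, where Nxph1 lies below the grey band at -0.54.

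Locus length ran alongside. In mm9, Nrxn3 lies at chr12:89961320-91573373 and spans 1612 kb, Nlgn1 at chr3:25330763-26230831 with 900 kb, and Nxph1 at chr6:8900019-9198578 with 299 kb. The others are shorter: Nrxn2 (chr19:6418738-6533217) spans 114 kb, Nlgn3 (chrX:98494520-98516689) 22.2 kb, Nlgn2 (chr11:69636625-69648351) 11.7 kb, Nxph4 (chr10:126962529-126971615) 9.09 kb and Lrrtm1 2.80 kb. The 3 genes that were higher in the KO at P7 and lower at P14 are thus the 3 longest loci of the 8. Measured against the median of their own bin of locus length (again 10 bins), Nxph1 (-0.48) and Nrxn3 (-0.24) stayed apart at P14 and Nlgn1 (-0.21) did not. At P7, Nrxn3 (0.07) was no longer apart.

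Markers of other retinal cells moved as well. OFF cone bipolar markers, 12 genes including Grik1, Tacr3 and Vsx1, summed to 151 FPKM in the control and 173 in the KO at P7, and to 120 and 88.5 at P14. Of those tested, 5 of 11 were higher and 2 lower at P7, and 0 of 10 higher and 5 lower at P14, by their bounds. Over all genes, 7.33% were higher and 6.10% lower at P7, and 7.45% higher and 8.25% lower at P14. The bipolar and amacrine counts below are to be read against the same shares. None of the 12 OFF cone bipolar markers was listed at 0 in any library. This list was higher in the KO at P7 and lower at P14 in its sum, as Nrxn3, Nlgn1 and Nxph1 were, and its part in their differences was not tested. Bipolar markers as a whole summed to 1155 and 1194 FPKM (control and KO) at P7, with 4 of 12 higher and 2 lower by their bounds, and to 945 and 933 at P14, with 1 higher and 6 lower (median -0.17). Amacrine markers summed to 452 and 434 FPKM at P7, with 0 of 9 higher and 4 lower by their bounds. At P14 they summed to 707 and 769, with 1 of 10 higher and 1 lower (median -0.04).

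Markers of tissue outside the neural retina also differed. The counts by bounds in this paragraph are to be read against all genes, of which 7.33% were higher and 6.10% lower at P7. At P14, 7.45% of all genes were higher and 8.25% lower. Vitreous and ciliary body markers summed to 51.5 and 82.8 FPKM (control and KO) at P7 and to 86.9 and 22.4 at P14, and pigment epithelium markers to 105 and 121, and 204 and 148. Of the vitreous and ciliary body markers 4 of 6 were higher in the KO at P7 and 6 of 6 lower at P14 by their bounds, and of the pigment epithelium markers 3 of 8 were higher and then 7 of 9 lower. Lens markers summed to 3.36 and 11.4, and to 11.1 and 3.15. Erythroid markers summed to 291 and 339, and to 1180 and 356, with 1 of 5 higher at P7 and 5 of 5 lower at P14. In their sums these 4 lists were higher in the KO at P7 and lower at P14, as Nxph1, Nlgn1 and Nrxn3 were. Other lists, among them those of cells within the retina, were higher in the KO at P14. Ganglion cell markers summed to 1295 FPKM against 1116 in the control (7 of 10 higher), and already at P7 to 700 against 622 (4 of 10 higher). Horizontal cell markers summed to 245 against 202 at P14 (4 of 6 higher), and to 175 against 160 at P7 (3 of 7 higher). At P14, reactive glia markers stood at 348 against 215 (4 of 7 higher) and immediate early genes at 122 against 65.8 (6 of 8 higher). Long nuclear RNAs such as Malat1, Meg3 and Neat1 summed to 164 and 53.0 FPKM at P7 and to 196 and 75.5 at P14, lower in the KO by their bounds in 6 of 6 genes tested at P7 and 7 of 7 at P14. Xist, from the inactive X chromosome, stood at 27.5 and 15.6 FPKM at P7 and 24.9 and 15.6 at P14, values that stand beside the X-linked Nlgn3. The list of 5 sex genes that holds Xist summed to 27.95 and 16.04 FPKM at P7, and to 25.07 and 15.80 at P14. Xist thus made up nearly all of each sum, and only 1 of the 5 genes reached the floor of 1 FPKM at either age. Whether the sex of the mice differed between libraries was not tested. The part of the list and Xist differences in the members' values was not tested.

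The other extracellular partners of neurexins and neuroligins, a list of 24 genes, did not share a single direction with age. By limma 8 rose and 11 fell, where 30.7% and 40.7% of all genes did, with a median of -0.01. Those that fell included Lphn3 (latrophilin 3, a receptor of neuronal adhesion; 22.2 and 22.8 FPKM at P7, 7.59 and 6.13 at P14), Igsf21 (a partner of neurexin at inhibitory synapses) and Dag1 (dystroglycan), by 1.59, 1.54 and 1.39 on the log2 scale. Lrrtm4 (0.86), Car11 (0.76) and Lrrtm3 (0.82) rose. The 2 remaining neurexophilins rose while Nxph4 fell: Nxph2 from 0.417 and 0.401 FPKM to 1.57 and 1.53 (0.86, adjusted p = 2.64e-05) and Nxph3 from 5.91 and 4.21 to 8.18 and 7.18 (0.53, adjusted p = 0.000857).

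Between genotypes, the partners called at P14 were mostly lower in the KO. At P7, 3 of 23 were higher (7.33% of all genes) and 3 lower (6.10%) by their bounds, with a median of -0.02. The higher 3 were Car10 (0.22), Dag1 (0.19) and Clstn1 (0.12), and the lower ones Lrrtm3 (-0.40), Lrrtm2 (-0.26) and Mdga1 (-0.22). At P14, 1 of 24 was higher, Clstn1 (0.10), and 8 were lower, where 7.45% and 8.25% of all genes were, with a median of -0.15. Lrrtm4, a postsynaptic leucine-rich repeat protein, stood at 4.77 FPKM against 6.88 (-0.45), Lrrtm2 at 4.20 against 5.34 (-0.28) and Cbln2, a secreted protein that bridges neurexins to delta receptors, at 24.1 against 29.6 (-0.28). Measured against the median of their own GC bin, 7 of the 24 were lower and 0 higher at P14, where 6.16% of all genes were lower and 4.64% higher, with a list median of -0.14. Of the LRRTM genes, Lrrtm1 thus stood apart from Lrrtm2 and Lrrtm4 in the sign of its P14 difference, 0.23, though its own bounds overlapped.

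Intracellular scaffolds, 25 genes for proteins that bind the tails of neurexins or neuroligins or lie beneath them, divided evenly with age: 9 of 24 rose and 9 fell, where 30.7% and 40.7% of all genes did. In the control, Lin7b (1.08) and Lin7a (0.91) were among the farthest higher at P14, and Cask, the kinase-like partner of neurexin tails, the farthest lower (15.9 FPKM at P7, 8.73 at P14; -0.80). Between genotypes 4 were higher and 2 lower of 24 at P7 (7.33% and 6.10% of all genes), and 2 higher and 5 lower of 25 at P14 (7.45% and 8.25% of all genes). Cask was higher in the KO at P7, at 17.7 against 15.9 FPKM (0.14), and Dlg2, at 57.7 FPKM in the control, was lower at P14 (-0.20). Dlgap3 was higher at P14, at 30.9 against 24.5 FPKM (0.32).

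Other synaptic adhesion families, 36 genes, were also followed with age: 20 of 35 fell and 3 rose, where 40.7% of all genes fell and 30.7% rose, with a median of -0.33 against -0.08 over all genes. Cadm1, an immunoglobulin-type adhesion protein, went from 219 FPKM at P7 to 74.6 at P14 in the control, and the teneurin genes Odz2 (-1.62) and Odz3 (-1.52) were likewise lower. Between genotypes 6 were higher and 1 lower of 35 at P7, and 2 higher and 7 lower of 34 at P14, to be read against the same shares of all genes. Slitrk6 was lower in the KO at both ages, at 5.73 against 7.68 FPKM (-0.37) and at 6.20 against 10.2 (-0.64). None of the 3 lists held a gene with a genotype effect in the additive limma fit.

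**Figure D5:**
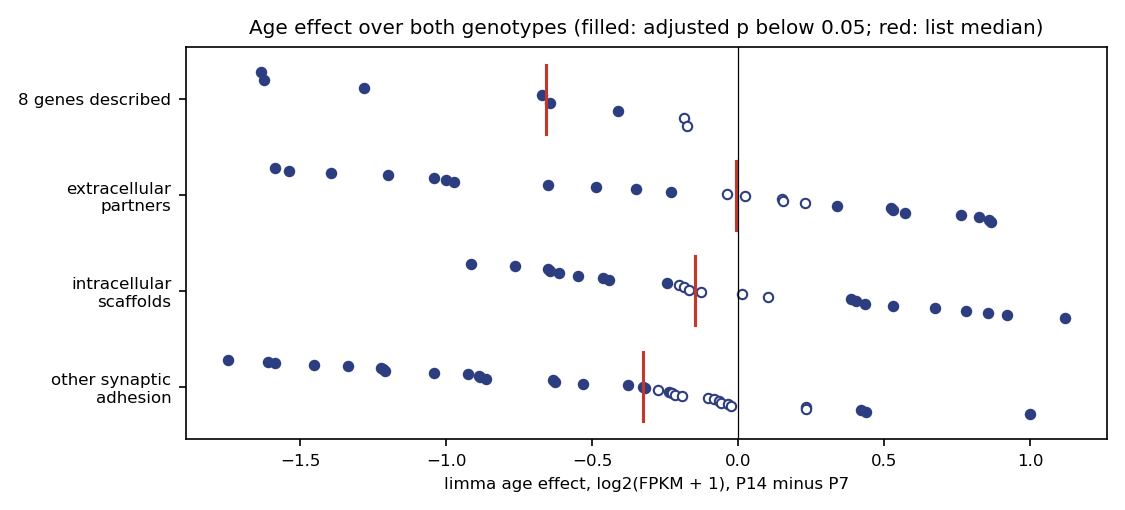
Age effect (P14 minus P7) in log2(FPKM + 1) from the limma fit over both genotypes for the 8 genes, the extracellular partners, the scaffolds and the other adhesion families, each point 1 gene, filled at an adjusted p below 0.05, with the list median in red. The medians are -0.66, -0.01, -0.15 and -0.33 in that order, and all 8 genes lie left of 0.

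Some genes followed the members closely over the 4 libraries, measured as the root mean square distance between log2(FPKM + 1) values centred on each gene's mean, over 11505 genes. The nearest to Nrxn3 was Lphn3 (distance 0.03), followed by Hnrnpa3 (0.04) and Lhx4 (0.04), and 39 genes lay within 0.1. Nlgn1 was nearest to Klf12 (0.02), Prkg1 (0.03) and Cdh2 (0.03), with 115 genes within 0.1, and Nlgn2 to Eftud2, Trim62 and Zbed4 (0.01 each), with 1021 genes within that distance. Nxph4 had 27, led by D930015E06Rik (0.03), Dll3 (0.05) and Fignl2 (0.05). Nxph1 had only 2, Itgb8 (0.09) and Col9a2 (0.10), followed by Pvrl3 (0.11). These distances rest on 4 libraries, 1 per group, and they describe likeness of level only.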

How the data were processed

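Per the labels' protocols, random-primed cDNA from total RNA of whole retinas was amplified and read as short single ends. The authors used CASAVA 1.8.2, TopHat2 2.0.8b and Cufflinks 2.1.1 and the build was mm9, both per the submitters' processing notes. The sources used here do not give the options or the gene annotation. The deposited values are FPKM per gene with bounds and a status, per the file headers, and coordinates are as in the files. The protocol names no molecular identifiers, so amplified copies of 1 molecule count several times and the bounds cover counting error only.

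Loci of 1 symbol were summed, and failed values (5 to 8 loci per library) were left out. The 742 small RNA genes and loci under 300 bases, which held 7.97% to 10.7% of the summed FPKM, were left out of comparisons. Genes at 1 FPKM or more in either library were compared as log2(FPKM + 1). The additive fit used limma 3.58.1 (R 4.3.3) with a variance trend on genes that reached 1 FPKM in 2 or more libraries.

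The 8 genes and the gene lists were chosen with earlier results of these data known. All 8 genes are named. From each partner list, up to 3 genes per comparison and direction are named, those at 2 FPKM or more with the largest differences and bounds apart. Some genes that meet this rule are not reported here. Lists that give values beside a result have up to 3 examples, and the 3 nearest genes are named for members spanning at least 0.5. GC content came from the longest GENCODE transcript of each symbol, found for 98.8% of genes, and this step was added after seeing the data.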

Additional observations from a re-analysis of the deposited data

Results flagged for a closer look

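Among the 8 genes and the partner genes named, 4 had a KO minus control difference of one sign at P7 and of the other at P14, with bounds apart at both ages, as did 193 of 13244 genes (1.46%) over all. There is 1 library per group and age, and the difference between the ages was not tested. The P14 difference minus the P7 difference, in log2(FPKM + 1), was -1.07 for Nxph1, -0.45 for Nlgn1 and -0.39 for Nrxn3. The fourth was Lin7c, a scaffold gene of the complex that holds Cask, with 0.12 at P7, -0.18 at P14 and -0.30 between them. Of the 8 genes, Nxph1 alone kept bounds apart at both ages under TPM and upper quartile scaling and with GC or length centring. Nrxn3 lost its P7 call on the TPM scale, under upper quartile scaling and with length centring. Nlgn1 lost its P7 call on the TPM scale and its P14 call with GC and with length centring.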

How the results depend on the processing

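No paired analysis was possible because each group has 1 library, so no replicate numbers pair samples across groups. No direction that was called was reversed under any alternative run: another pseudocount, TPM and upper quartile scaling, other filters, and centring on GC content or locus length. On the TPM scale 2 of the 8 genes were called at P7, against 4. A 1.5-fold rule called 126 genes at P7 and 189 at P14, with 0 and 0 of the 8 genes, and 4889 with age in the control and 5096 in the KO. The genotype effect in limma called 0 genes with no filter and 19 without the variance trend, against 31. With GC centring 1366 genes were called at P14, against 2011, and 1655 at P7, against 1702. In the age fit, Nlgn3 (adjusted p = 0.0236) and Lrrtm1 (adjusted p = 0.0386) were called on the TPM scale only, where the median of all genes was -0.17 instead of -0.08. Higher and lower age calls were 3976 and 5257, on the TPM scale 3412 and 5944, and with upper quartile scaling 4642 and 4457. Each scale multiplies all genes of a library by 1 factor. The TPM factors were 2.89 and 2.80 (control and KO) at P7, and 2.70 and 2.60 at P14. The upper quartile factors were 0.972 and 0.956, and 1.05 and 1.03. Why the factors differ between the ages was not tested. Lrrtm1 in the control was no longer apart with age under upper quartile scaling, and Nlgn3 was apart in both genotypes on the TPM scale. The bounds of Nxph1 rest on about 118 to 299 fragments.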
